A study of Mus musculus with 2 samples.

Results

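The 9 genes described here move glutamate or neutral amino acids across the cell membrane, or convert glutamate to and from glutamine and 2-oxoglutarate. They were picked by symbol from the 55416 features of the count matrices: 5 carriers of the SLC1 family (Slc1a1, Slc1a2, Slc1a3, Slc1a4 and Slc1a5) and 4 enzymes (Glul, Glud1, Got1 and Got2). All 9 were listed in both matrices and all had at least 100 UMIs (unique molecular identifiers, each standing for 1 captured RNA) in each library. Samples of whole fetal mouse brain were compared by single-nucleus RNA sequencing, 1 library labelled wildtype (WT) and 1 labelled Cav1 knockout (KO) (Cav1 encodes caveolin 1, a coat protein of membrane pits that is abundant in blood vessels). Strain, sex, exact fetal age and the number of animals behind each library were not in the labels used here. With 1 library per genotype no difference between the libraries has a replicate check, and every interval below covers counting error only.

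Glutamate released by neurons is removed from the extracellular space by sodium-driven carriers, which in the adult brain sit mostly in astrocytes. Astrocytes turn part of it into glutamine, which neurons take up and convert back, a loop known as the glutamate-glutamine cycle. In the fetal brain astrocytes are scarce, and radial glia, the stem cells that line the ventricles, already carry one of the glial carriers.

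The WT-labelled library held 6686 kept nuclei with 17205381 UMIs and a median of 2133 UMIs per nucleus, and the KO-labelled library held 6680 kept nuclei with 19878903 UMIs and a median of 2366. Cav1 itself gave 71 and 80 UMIs, 4.13 and 4.02 CPM (counts scaled to 1000000 UMIs per library or gate), so its total did not separate the labels. The libraries are therefore named by their labels throughout. The libraries shared 43 of their deposited barcodes and 10 of the kept ones. Haemoglobin- and histone-led nuclei of low depth made up 9.41% of the WT-labelled and 14.6% of the KO-labelled nuclei (medians of 740 and 706 UMIs).

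Cell types were assigned by marker gates: a nucleus belonged to the type with the most detected markers, with at least 2. Nuclei tied between types at 2 or more markers were left outside every gate. Nuclei with fewer than 2 markers of every type were called other neurons if they had at least 3 general neuron markers. Otherwise they too were left outside. Of the nuclei outside every gate, 72.4% and 71.7% had at least 3 general neuron markers and so were ties. None of the 9 genes was a marker. For these genes, the orders of types and the types said to lead cover gates with at least 50 nuclei in each library. Each gate was compared with clusters of the same nuclei, made without the 9 genes, and nuclei on which gate and cluster gave the same name are called core nuclei. The endothelial gate (51 and 71 nuclei) matched its cluster in 92.2% and 90.1% of nuclei, and the fibroblast gate (85 and 91 nuclei) in 87.1% and 83.5%. The radial glia gate (1955 and 2045 nuclei) matched its clusters far less often. Only 649 and 549 of its nuclei were core, and 63.3% and 65.1% of its nuclei had at least 3 general neuron markers. The core was not free of them: 295 and 252 of its nuclei also had at least 3. A further 284 and 435 gate nuclei were in the low-depth cluster above. That cluster was given no type name, although radial glia was its best matching list, so its nuclei could not be core. Radial glia values are therefore given for the gate and for the core, a division set up after the impurity was seen. The 7 astrocyte markers summed to 67.3 and 75.6 CPM in the radial glia gate, against 27.9 and 26.2 CPM in cortical excitatory neurons. Most of these UMIs came from Aldh1l1, a folate enzyme (144 and 215), Gja1, a gap junction gene (108 and 126), and S100b, a calcium-binding protein (68 and 87). Gfap, an intermediate filament of mature astrocytes, had 2 and 3 UMIs, and Aqp4, their water channel, had 6 and 14.

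Over all kept nuclei, 0 of the 9 genes differed by 1.5-fold or more between the libraries, against a background of 2.72% (423 of 15528 genes counted 100 times or more). Ratios are given as log2, KO-labelled over WT-labelled: the median was 0.01 for the 9 genes and -0.01 for all genes. Slc1a2 stood highest: 1619 UMIs (94.1 CPM, 95% Poisson interval 89.6 to 98.8) in the WT-labelled and 2372 UMIs (119 CPM, 115 to 124) in the KO-labelled library. Its log2 ratio was 0.34 (95% exact interval 0.25 to 0.43), a 1.27-fold difference, and 7.15% of all genes had a higher ratio. Glul followed with 261 and 360 UMIs, 15.2 and 18.1 CPM, a log2 KO/WT ratio of 0.26 (0.02 to 0.49). For the other 7 genes the interval of the ratio included 0. Slc1a5 was the lowest, with 137 and 127 UMIs, a log2 KO/WT ratio of -0.32 (-0.68 to 0.04). In such sums over all nuclei, fewer cells of a type and less RNA per cell cannot be told apart.

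**Figure D1:**
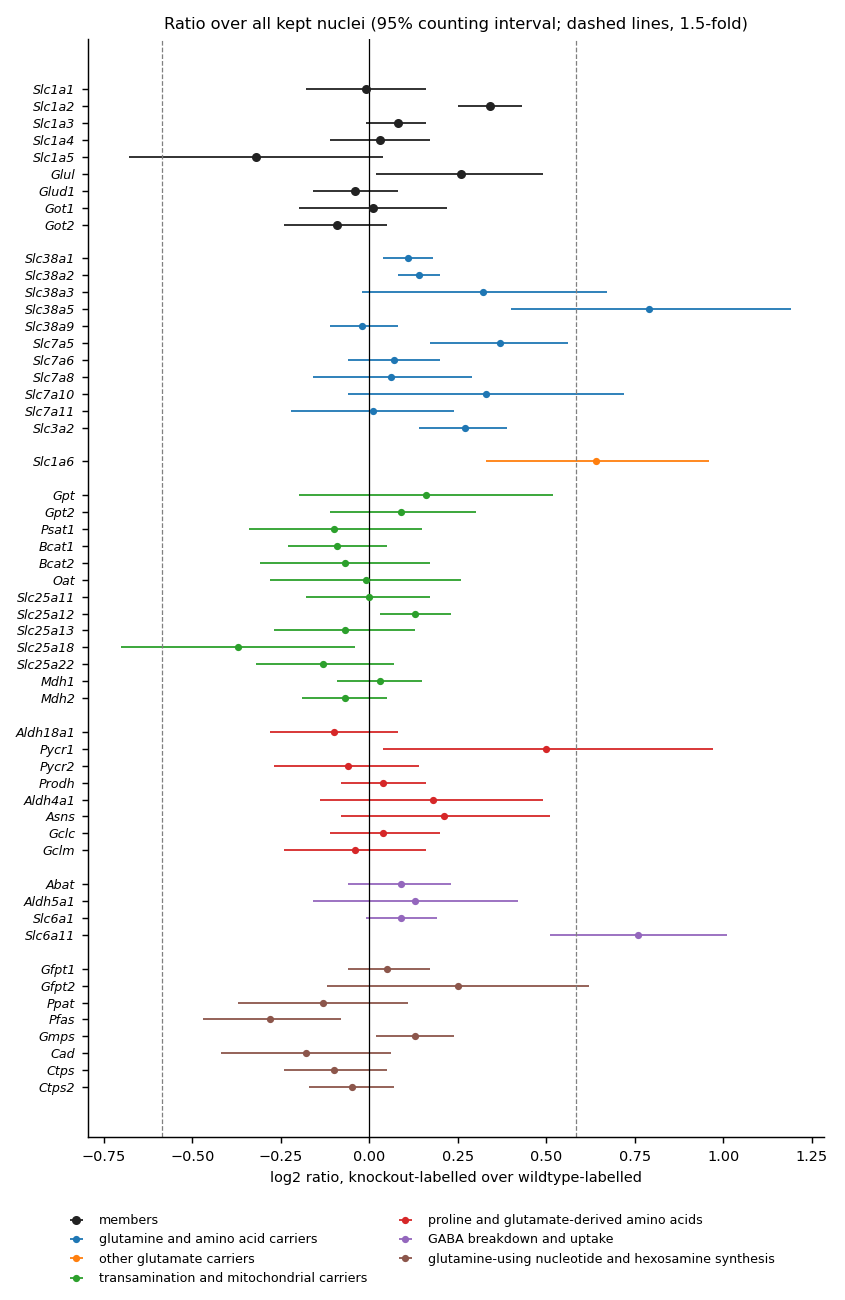
Log2 ratio of CPM over all kept nuclei, KO-labelled over WT-labelled, for the 9 genes (black) and for genes of the wider glutamate and glutamine list with at least 100 UMIs (coloured by group). Points are ratios of 1 library to 1 library, bars are 95% counting intervals and dashed lines mark 1.5-fold. Slc1a2 sits at 0.34, and Slc38a5, Slc6a11 and Slc1a6 lie beyond the dashed line on the right.

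Slc1a3 encodes GLAST, the glutamate carrier of radial glia and astrocytes. It lies on chromosome 15 from 8663604 to 8741595, minus strand, in GRCm39 (GENCODE M39), and its canonical transcript has 10 exons. The 2 carriers with the sharpest cell type pattern are Slc1a3 and Slc1a4, so the 250 bases before their starts are shown, as given by RefSeq on GRCm38.p6. The Slc1a3 stretch is chr15:8710808-8711057 and the Slc1a4 stretch is chr11:20332714-20332963, both read on the minus strand. Capitals mark GGGCGG (the GC box), TGGGAA (the core of the RBPJ site) and CANNTG (the E-box) on either strand.
Slc1a3: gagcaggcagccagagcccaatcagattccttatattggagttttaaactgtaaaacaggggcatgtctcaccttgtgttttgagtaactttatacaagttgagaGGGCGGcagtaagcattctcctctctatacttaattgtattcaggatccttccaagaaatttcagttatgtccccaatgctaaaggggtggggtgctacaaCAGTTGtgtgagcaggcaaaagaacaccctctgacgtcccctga
Slc1a4: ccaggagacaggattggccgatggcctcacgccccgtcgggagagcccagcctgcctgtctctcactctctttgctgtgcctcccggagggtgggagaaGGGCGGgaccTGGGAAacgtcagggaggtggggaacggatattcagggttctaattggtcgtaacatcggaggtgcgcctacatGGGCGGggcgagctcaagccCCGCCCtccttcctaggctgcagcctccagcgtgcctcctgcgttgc
The Slc1a3 stretch is 44.8% G and C and holds 1 GC box and 1 E-box. The Slc1a4 stretch is 64.8% G and C and holds 3 GC boxes and 1 TGGGAA. Of 32851 RefSeq start regions of the same 250-base length, 32.7% held a GC box, 21.6% TGGGAA and 66.2% an E-box, so these letters are common. ACAAAG (the SOX core, in 16.5% of regions) and CCGGAA (the ETS core, in 12%) were also searched on both strands and were in neither stretch. A match is a run of letters and not a measured site. The table had a start region for 8 of the 9 genes.

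By cell type, Slc1a3 was highest in fibroblast-gated nuclei, which carry the collagen genes of the meninges, and next in radial glia. Fibroblast-gated nuclei held 249 UMIs (946 CPM, 832 to 1071) in the WT-labelled and 290 UMIs (1042 CPM, 926 to 1170) in the KO-labelled library. This was 8.64-fold (7.54 to 9.86) and 8.99-fold (7.92 to 10.2) above all other nuclei of the same library. Radial glia-gated nuclei held 1273 UMIs (256 CPM) and 1578 UMIs (263 CPM). Core radial glia were higher, at 487 CPM (453 to 522) and 612 CPM (573 to 653). Every other gate with at least 50 nuclei per library lay at or below 114 CPM, and fibroblast, radial glia and all the rest were separated in this order beyond both the range over libraries and the counting intervals. From the third place down (endothelial cells, intermediate progenitors, cortical excitatory neurons and so on) neighbours overlapped.

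Most fibroblast-gated nuclei held Slc1a3 RNA. At least 1 UMI of Slc1a3 was found in 69.4% and 65.9% of fibroblast-gated nuclei (median depths 2560 and 2880 UMIs), and in 3.36% and 4.91% of forebrain inhibitory neurons (medians 1924 and 2267), a type that should lack it. Thinned to 1000 UMIs per nucleus, the shares were 54.4% and 53.1% of fibroblast-gated nuclei, 33.5% and 40.6% of core radial glia and 1.72% and 1.66% of forebrain inhibitory neurons. The summed radial glia marker list stood at 1056 and 1025 CPM in fibroblast-gated nuclei, much as in cortical excitatory neurons (997 and 1087 CPM) and below radial glia (2896 and 2691 CPM). The astrocyte list summed to 752 and 859 CPM in fibroblast-gated nuclei, above the radial glia gate. Of its 7 genes, Gja1, which meningeal cells also use, had 180 and 209 of these UMIs and Gjb6, another gap junction gene, 11 and 23. Aldh1l1 had 3 and 1, S100b 4 and 5 and Gfap 0 and 1, and Aqp4 and Agt had 0 in both libraries. The part of this list in the fibroblast level of Slc1a3 was not tested. In all, the radial glia gate held 60.5% and 61.5% of the Slc1a3 UMIs of each library and the fibroblast gate, with 1.53% and 1.4% of the UMIs of all genes, held 11.8% and 11.3%.

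**Figure D2:**
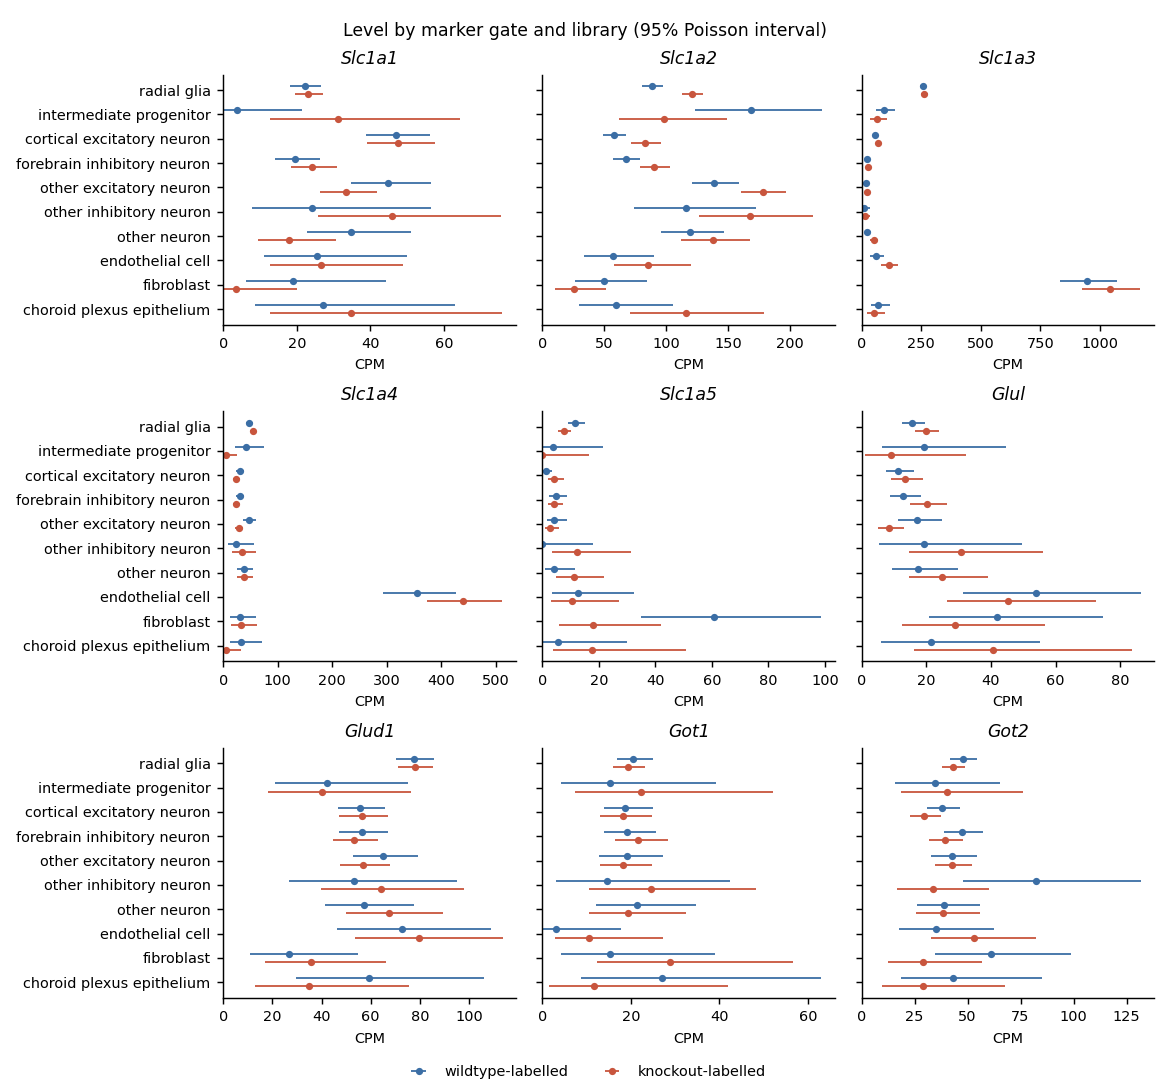
Level of each of the 9 genes in CPM (x axes, each from 0) by marker gate (rows) in the WT-labelled (blue) and KO-labelled (red) library. Points are sums over the nuclei of a gate and bars are 95% Poisson intervals. Slc1a3 peaks in fibroblasts at 946 and 1042 CPM and Slc1a4 in endothelial cells at 355 and 439 CPM, whereas Got1 and Got2 vary little among the large gates.

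Between the libraries, Slc1a3 gave in the radial glia gate a log2 KO/WT ratio of 0.04 (-0.07 to 0.15). In core radial glia the ratio was 0.33 (0.19 to 0.47), a 1.26-fold higher level in the KO-labelled library. By region markers within the core, it was 0.11 (-0.09 to 0.32) in forebrain nuclei, 0.49 (0.13 to 0.87) in midbrain and hindbrain nuclei and 0.43 (0.19 to 0.68) in nuclei without a region call, and the forebrain share of the core was 56.2% and 42.4%. In fibroblast-gated nuclei it was 0.14 (-0.11 to 0.39). Endothelial cells gave 0.92 (0.11 to 1.79) in the gate, on 19 and 43 UMIs, and 0.76 (-0.06 to 1.65) in the core. Whether Slc1a3 is higher in dividing radial glia depended on the nuclei used. In the gate, nuclei not dividing were lower than dividing ones, by log2 ratios of -0.60 and -0.45 in the WT- and KO-labelled library. In the core they were higher, by 0.30 (0.09 to 0.52) and 0.26 (0.07 to 0.46).

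Slc1a2 encodes GLT-1, which clears most glutamate in the adult forebrain from astrocytes. Its locus is chromosome 2 from 102488574 to 102621129, plus strand, with 11 canonical exons. In these fetal nuclei its level was not highest in radial glia. By the mean of both libraries, the order was led by excitatory neurons outside the cortex (139 and 178 CPM), then inhibitory neurons outside the forebrain (116 and 168 CPM) and intermediate progenitors (169 and 98.3 CPM), which were the highest of these 3 in the WT-labelled library. Radial glia-gated nuclei had 88.8 and 121 CPM and cortical excitatory neurons 57.7 and 83.2 CPM. Split by region markers, the radial glia gate had 82.7 and 105 CPM in the forebrain and 131 and 162 CPM in midbrain and hindbrain. The part of region in the order of types was not tested. Fibroblast-gated nuclei were lowest, at 49.4 and 25.2 CPM. Neighbours in this order overlapped throughout, so only distant places differ, as excitatory neurons outside the cortex (1.55-fold and 1.59-fold above all other nuclei) and fibroblasts do. At 1000 UMIs per nucleus, 13.8% and 15% of excitatory neurons outside the cortex had a Slc1a2 UMI, against 2.53% and 1.23% of fibroblast-gated nuclei; unthinned, these shares were 29.7% and 36.4% against 11.8% and 7.69%, at median depths of 2732 and 3165 against 2560 and 2880 UMIs.

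The higher Slc1a2 level under the KO label was seen in most gates, but not in every large group of nuclei. With class makeup held equal, the ratio over all nuclei was 0.30. It was higher in 8 of the 10 gates where it had at least 20 UMIs, and the interval lay above 0 in 4 of them. Of 3328 genes with at least 20 UMIs in every one of these gates, 9.44% were higher in at least 8 of 10. The 4 gates were radial glia (441 and 726 UMIs, a log2 KO/WT ratio of 0.45, 0.28 to 0.62), cortical excitatory neurons (145 and 187 UMIs, 0.53, 0.21 to 0.85), forebrain inhibitory neurons (152 and 226 UMIs, 0.43, 0.12 to 0.73) and excitatory neurons outside the cortex (212 and 400 UMIs, 0.36, 0.11 to 0.60). The other 2 gates went the other way with few counts: fibroblasts with 13 and 7 UMIs, a log2 KO/WT ratio of -0.97 (-2.54 to 0.46), and intermediate progenitors with 44 and 22 UMIs, -0.78 (-1.59 to -0.01). Core nuclei of the intermediate progenitors, with 18 and 14 UMIs, gave -0.05 (-1.17 to 1.04). Their cluster, with 78 and 71 UMIs, gave 0.29 (-0.20 to 0.77). Nuclei outside every gate, mostly ties between types, held 26.9% and 23.7% of the Slc1a2 UMIs. They gave 0.09 (-0.09 to 0.27), on 435 and 561 UMIs. By cluster, radial glia gave 0.67 (0.34 to 1.00). Clusters named as inhibitory neurons outside the forebrain gave 0.04 (-0.14 to 0.21), on 435 and 766 UMIs. Most of their nuclei (662 and 1125) were in 1 cluster led by A230006K03Rik, Cdh18 and Snhg11. It was named from 5 raised markers of that type, none among its leading genes, so the name is uncertain. In core nuclei the ratio was 0.80 (0.33 to 1.28) for cortical excitatory neurons and 0.64 (0.32 to 0.97) for excitatory neurons outside the cortex, but for forebrain inhibitory neurons it was 0.32 (-0.10 to 0.76), with an interval that included 0.

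**Figure D3:**
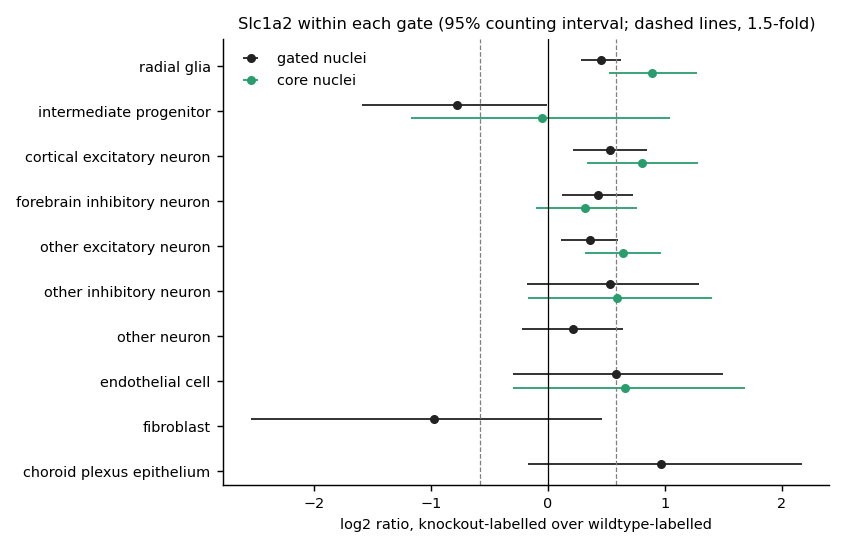
Log2 ratio of Slc1a2, KO-labelled over WT-labelled, in each gate (black) and in its core nuclei (green), where at least 20 UMIs were counted. Bars are 95% counting intervals and dashed lines mark 1.5-fold. Core radial glia lie at 0.89 and intermediate progenitors at -0.78 for the gate and -0.05 for the core.

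In core radial glia Slc1a2 had 96 UMIs (60.1 CPM, 48.7 to 73.4) under the WT label and 169 UMIs (111 CPM, 95.3 to 130) under the KO label, and the intervals did not overlap. The log2 ratio was 0.89 (0.52 to 1.27), or 1.86-fold. Of the 9 genes, 5 had at least 100 UMIs in core radial glia and 2 of these (Slc1a2 and Slc1a4) were past 1.5-fold, against 4.12% of 6620 genes. In the impure gate, 1 of 9 was past 1.5-fold (Slc1a5, lower), against 3.54% of 11633 genes.

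The libraries also differed in where their radial glia came from. By region markers, 10.9% of core radial glia were from midbrain or hindbrain in the WT-labelled and 20.9% in the KO-labelled library, and the forebrain share went the other way, as given for Slc1a3. Slc1a2 was lower in forebrain than in midbrain and hindbrain radial glia of the same library, by log2 ratios of -1.06 (-1.88 to -0.19) and -1.61 (-2.23 to -1.01). Within the forebrain the 2 libraries had 48.5 and 57.8 CPM, a log2 KO/WT ratio of 0.26 (-0.40 to 0.90). Within midbrain and hindbrain they had 101 and 177 CPM, 0.80 (0.03 to 1.65), and in nuclei without a region call 68.9 and 138 CPM, 1.00 (0.37 to 1.67). The oligodendrocyte precursor markers moved with it, at 204 and 369 CPM in core radial glia. The part of this list in the result was not tested.

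**Figure D4:**
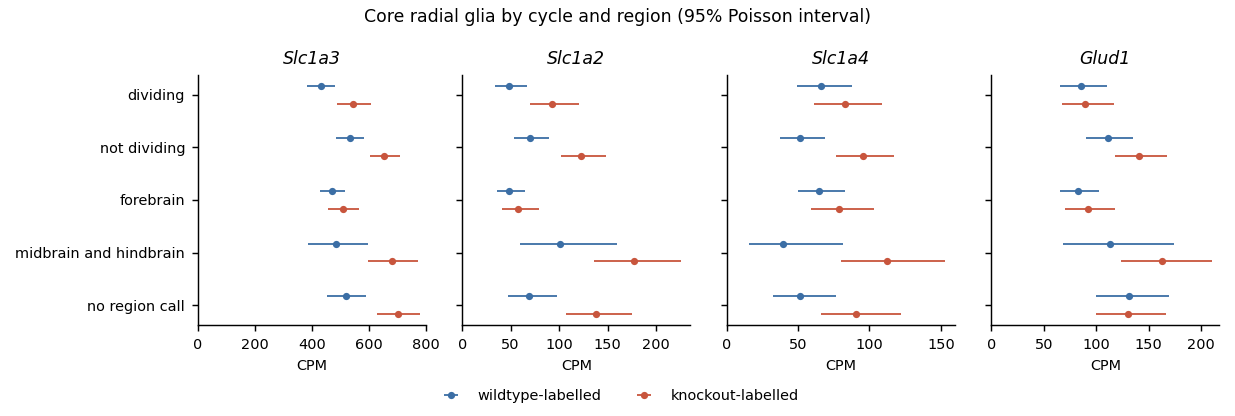
Level in core radial glia in CPM (x axes, each from 0) of Slc1a3, Slc1a2, Slc1a4 and Glud1, split by dividing state and by region markers (rows), in the WT-labelled (blue) and KO-labelled (red) library. Bars are 95% Poisson intervals. Slc1a2 in forebrain nuclei lies at 48.5 and 57.8 CPM, and in midbrain and hindbrain nuclei at 101 and 177 CPM.

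Slc1a1 encodes EAAC1, the neuronal glutamate carrier. The gene spans chromosome 19 from 28812449 to 28891360, plus strand, with 12 canonical exons. Among gates with at least 50 nuclei per library, cortical excitatory neurons led with 118 UMIs (47 CPM, 38.9 to 56.3) and 107 UMIs (47.6 CPM, 39 to 57.5). This was 1.71-fold above all other nuclei in each library. Excitatory neurons outside the cortex followed at 44.7 and 33.4 CPM, overlapping them in counting intervals. The smaller oligodendrocyte precursor gate stood above both, at 64 and 69.6 CPM, but on only 8 and 12 UMIs. Radial glia had 110 UMIs (22.2 CPM) and 138 UMIs (23 CPM) in the gate and were lower in the core, with 18 UMIs (11.3 CPM) and 9 UMIs (5.94 CPM). The last place in the order of gates was held by fibroblast-gated nuclei, with 5 and 1 UMIs. Between labels, excitatory neurons outside the cortex gave a log2 KO/WT ratio of -0.42 (-0.91 to 0.08) in the gate, on 68 and 75 UMIs, and -0.86 (-1.65 to -0.10) in core nuclei, on 38 and 25 UMIs, so that the interval lay below 0 in the core alone.

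Slc1a4 encodes ASCT1, which exchanges serine, alanine and other small neutral amino acids. It lies on chromosome 11 from 20252180 to 20282774, minus strand, with 8 canonical exons. Endothelial-gated nuclei held 112 UMIs (355 CPM, 292 to 427) and 165 UMIs (439 CPM, 374 to 511), 9.45-fold (7.66 to 11.6) and 11.9-fold (10 to 14.2) above all other nuclei. Radial glia came next with 47.9 and 54.1 CPM in the gate and 58.2 and 90.4 CPM in the core. Endothelial cells stood clear of every other type. From radial glia down, radial glia included, the counting intervals of neighbours overlapped. At least 1 UMI was found in 74.5% and 74.6% of endothelial-gated nuclei (median depths 2908 and 3172) and in 6.72% and 6.03% of forebrain inhibitory neurons. At 1000 UMIs the shares were 36.2% and 49.3% against 2.75% and 2.25%.

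Between labels, the interval of the endothelial Slc1a4 ratio included 0, with a log2 KO/WT ratio of 0.31 (-0.05 to 0.66) in the gate and 0.12 (-0.24 to 0.49) in the core. In the same nuclei the summed endothelial markers stood at 4973 and 8116 CPM and the fibroblast markers at 308 and 90.4 CPM. The part of these lists in the ratio was not tested. Of these nuclei, 13.7% and 28.2% were among the 8% with the highest doublet scores of their library, and without them the ratio was 0.55. In core radial glia Slc1a4 had 93 and 137 UMIs, a log2 KO/WT ratio of 0.63 (0.24 to 1.03), beside the differing region shares and oligodendrocyte precursor markers given for Slc1a2. Within the forebrain part of the core the ratio was 0.27 (-0.28 to 0.83), on 63 and 53 UMIs, and within midbrain and hindbrain it was 1.51 (0.34 to 2.91), on 7 and 40 UMIs. In excitatory neurons outside the cortex it was lower under the KO label, with 72 and 65 UMIs, 47.3 and 29 CPM, a log2 KO/WT ratio of -0.71 (-1.21 to -0.20), and core nuclei gave -0.80 (-1.58 to -0.05) on 38 and 26 UMIs. In that gate it was the 1 gene of 5 with at least 100 UMIs past 1.5-fold, against 2.87% of 6888 genes.

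Slc1a5 encodes ASCT2, a glutamine carrier of dividing cells. The gene spans chromosome 7 from 16515265 to 16532731, plus strand, with 9 canonical exons, and it had the fewest counts. Fibroblast-gated nuclei led with 16 UMIs (60.8 CPM, 34.8 to 98.7) and 5 UMIs (18 CPM, 5.84 to 41.9), a log2 KO/WT ratio of -1.76 (-3.56 to -0.24). Radial glia-gated nuclei had 58 and 46 UMIs, 11.7 and 7.68 CPM, a log2 KO/WT ratio of -0.61 (-1.20 to -0.02). Core radial glia had 29 and 19 UMIs, 18.2 and 12.5 CPM, and there the ratio of -0.53 (-1.45 to 0.35) had an interval that included 0. Cortical excitatory neurons were near the bottom at 1.19 and 4 CPM. Slc1a5 was lower under the KO label in each of the 3 gates with at least 20 UMIs, but on few counts.

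Glul encodes glutamine synthetase, which joins ammonia to glutamate. It lies on chromosome 1 from 153775690 to 153785469, plus strand, with 7 canonical exons. Among gates with at least 50 nuclei per library, endothelial-gated nuclei led with 17 UMIs in each library (53.9 and 45.2 CPM). This was 3.73-fold (2.14 to 6.1) and 2.57-fold (1.48 to 4.18) above all others. Fibroblast-gated nuclei followed (41.8 and 28.8 CPM). Radial glia stood in the lower part of the order, among the neurons, at 15.7 and 19.9 CPM in the gate and 13.1 and 19.1 CPM in the core, and cortical excitatory neurons were lowest by the mean of both libraries (11.2 and 13.3 CPM), although under the KO label excitatory neurons outside the cortex (8.47 CPM) and intermediate progenitors (8.93 CPM) were below them. Between labels, Glul was higher under the KO label in 4 of the 6 gates with at least 20 UMIs, all with intervals that included 0. In nuclei outside every gate it had 37 and 73 UMIs, a log2 KO/WT ratio of 0.70 (0.11 to 1.32). It was lower in excitatory neurons outside the cortex (26 and 19 UMIs, a log2 KO/WT ratio of -1.01, -1.95 to -0.10), while core nuclei of that type, with 12 UMIs each, gave -0.26 (-1.54 to 1.03).

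Glud1 encodes glutamate dehydrogenase, the mitochondrial enzyme that links glutamate to 2-oxoglutarate. Its locus is chromosome 14 from 34032583 to 34067642, plus strand, with 13 canonical exons. Radial glia led with 386 UMIs (77.7 CPM) and 467 UMIs (78 CPM), 1.29-fold and 1.35-fold above all other nuclei, and the core was higher at 99.5 CPM (84.7 to 116) and 121 CPM (104 to 140). Endothelial cells were level with the gate (72.9 and 79.8 CPM) and fibroblasts lowest (26.6 and 35.9 CPM). Like Slc1a2, Glud1 in core radial glia was lower in the forebrain than in midbrain and hindbrain, at 82.5 against 113 CPM under the WT label (a forebrain over midbrain and hindbrain log2 ratio of -0.45, -1.17 to 0.34) and 91.9 against 163 CPM under the KO label (-0.82, -1.36 to -0.28); only the second interval lies below 0.

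Got1 and Got2 encode the cytosolic and the mitochondrial aspartate aminotransferase, which with malate dehydrogenase form the malate-aspartate shuttle. Got1 lies on chromosome 19 from 43488188 to 43513674, minus strand, and Got2 on chromosome 8 from 96590760 to 96615190, minus strand. Both varied little among the large gates. Got1 had 20.5 and 19.4 CPM in radial glia, 18.7 and 18.2 CPM in cortical excitatory neurons and 19.1 and 21.7 CPM in forebrain inhibitory neurons. Endothelial cells were lowest for Got1, with 1 UMI and 4 UMIs (3.17 and 10.6 CPM). The core radial glia levels were 17.5 and 17.8 CPM for Got1 and 41.9 and 44.2 CPM for Got2. Got2 had 47.7 and 43.2 CPM in radial glia and 37.8 and 29.3 CPM in cortical excitatory neurons. Between labels, cortical excitatory neurons gave a Got2 log2 KO/WT ratio of -0.37 (-0.84 to 0.10) in the gate, on 95 and 66 UMIs, and -0.75 (-1.39 to -0.15) in core nuclei, on 71 and 34 UMIs. Inhibitory neurons outside the forebrain led the order for Got2 by the mean, with 17 UMIs (82.2 CPM) and 11 UMIs (33.6 CPM), which was 1.86-fold (1.08 to 3) and 0.8-fold (0.398 to 1.44) the level of all other nuclei. Their log2 KO/WT ratio was -1.29 (-2.53 to -0.11) in the gate and -1.01 (-2.29 to 0.24) in the core. The far larger clusters of the same name (889 and 1278 nuclei) had 39.5 and 42.8 CPM, a log2 KO/WT ratio of 0.12 (-0.21 to 0.44). For most of these nuclei the name is uncertain, as given for Slc1a2. No neighbouring types differed beyond both the range over libraries and the counting intervals for either gene.

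In the cortical excitatory neuron gate 0 of 6 of the 9 genes with at least 100 UMIs were past 1.5-fold (2.13% of 7684 genes were), and in the forebrain inhibitory gate 0 of 6 (2.54% of 7866). In core cortical excitatory neurons 2 of 5 were, Slc1a2 higher and Got2 lower under the KO label (2.21% of 6030 genes), and in core forebrain inhibitory neurons 0 of 3 (3.33% of 5701). Slc1a2 was also the 1 of 2 in core excitatory neurons outside the cortex (5.26% of 4107), and Glul, higher, the 1 of 8 in nuclei outside every gate (3.08% of 10177). Small gates gave few counts. The oligodendrocyte precursor gate (45 and 52 nuclei) had 22 and 18 UMIs of Slc1a2, and the mural gate (25 and 31 nuclei) had 3 and 7 UMIs of Slc1a4. Some small gates, left out of the orders, had high levels on few counts. Got1 stood at 56 and 34.8 CPM in oligodendrocyte precursors (7 and 6 UMIs). Glul stood at 67.6 and 38.8 CPM in the microglia or macrophage gate (5 and 3 UMIs).

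Over 21 sums of a type in a library, all drawn from the 2 libraries, the genes most alike in pattern were found among 13256 genes by Pearson correlation of log2(CPM + 1). For Slc1a4 they were Slc7a5 (r = 0.92), the large neutral amino acid carrier of the blood-brain barrier, Mrtfb (0.92) and Flt1 (0.86), an endothelial VEGF receptor. For Slc1a3 they were Laptm4a (0.90), Antxr1 (0.89) and Ptn (0.88), a secreted growth factor. For Slc1a2 they were Cadm3 (0.88), Marchf1 (0.81) and Dennd6b (0.81). For Slc1a1 they were Gm36146 (0.86), Epha6 (0.85) and Btbd11 (0.84), and for Slc1a5 Ifngr1 (0.87), Kctd9 (0.86) and Xpnpep3 (0.85). For Glul they were Ahr (0.83), mt-Nd6 (0.83) and Kdelr2 (0.82), and for Glud1 Wscd1, Gm28320 and Cadm2 (0.82 each). For Got1 they were Zfyve28 (0.85), Rptoros (0.83) and Gm49584 (0.83), and for Got2 Rprd1a (0.76), Hspa14 (0.73) and Tmem181a (0.72).

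For 5 pairs of the 9 genes, nuclei with both RNAs were counted at 1000 UMIs per nucleus and set beside the number that the product of the single shares gives. In the radial glia gate, Slc1a3 and Glud1 were both seen in 38 nuclei (25.2 by the product) and 39 nuclei (26.7), and Slc1a3 and Slc1a4 in 21 (13.3) and 25 (17.1). The counts lay nearer the product in the core, at 22 (20.1) and 27 (25.2) for Slc1a3 and Glud1 and 13 (9.71) and 22 (20.7) for Slc1a3 and Slc1a4. Slc1a3 and Slc1a2 were both seen in 21 (24.2) and 40 (30.1) gated nuclei and in 7 (9.71) and 26 (21.5) core nuclei. The pairs with Glul had at most 7 nuclei. At 2000 UMIs, Slc1a2 and Glul were both seen in 1 core nucleus (0.908) and 8 core nuclei (3.17), and in 3 (4.5) and 11 (7.01) gated nuclei. The other core pairs at that depth lay nearer the product or below it. With Slc1a3 they were 36 (36) and 42 (42.1) for Glud1 and 22 (23.8) and 35 (36.3) for Slc1a4. For Slc1a2 they were 17 (23.8) and 35 (35.7), and for Glul 5 (4.43) and 14 (11.1). Nuclei of 1 library are not replicates.

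The wider pathway list held 50 genes, of which 46 had at least 100 UMIs. Over all nuclei 3 of the 46 were past 1.5-fold higher under the KO label (2.12% of all genes were) and 0 lower (0.605%), and the list's median log2 ratio was 0.05. Slc38a5, a glutamine carrier, had 81 and 162 UMIs (a log2 KO/WT ratio of 0.79, 0.40 to 1.19), and 38 and 113 of these came from endothelial-gated nuclei. Slc6a11, the GABA carrier GAT3, had 206 and 402 UMIs (0.76, 0.51 to 1.01), 116 and 274 of them in the radial glia gate. Slc1a6, the Purkinje cell glutamate carrier, had 133 and 240 UMIs (0.64, 0.33 to 0.96). Within the endothelial gate, which held 51 and 71 nuclei, Slc38a5 had 121 and 301 CPM, beside the marker levels given above. Among amino acid carriers, endothelial nuclei led for Slc7a5 (476 and 708 CPM, 37.5-fold and 50-fold above other nuclei), its partner Slc3a2 (200 and 489 CPM) and Slc38a2 (913 and 1556 CPM). Fibroblast-gated nuclei led for Slc7a11, the cystine-glutamate exchanger (186 and 295 CPM).

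Related and overlapping loci were counted apart from the 9 genes. Among them, Got2-ps1 had 0 and 2 UMIs, Glud-ps 0 in both libraries (which allows up to 3 counts), Got1l1 6 and 11, and Slc1a7 13 and 5. Spata6l, on the strand opposite Slc1a1, had 761 and 889 UMIs, more than Slc1a1 itself (521 and 597). Shld2, opposite the start of Glud1, had 300 and 334, and Gm37310, inside Slc1a3 on the same strand, 31 and 38. On the opposite strand, Gm13872 at Slc1a2 had 55 and 67 UMIs, Teddm2 at Glul 76 and 74, and Gm45760 at Got2 34 and 39. How reads in these overlaps were assigned is not given in the sources used here. Slc1a1, Slc1a2, Slc1a3, Glul, Glud1 and Got2 are uncertain to that extent.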

How the data were processed

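Per the file headers, the authors made the deposited matrices with Cell Ranger 6.1.1. Per the submitters' processing notes, Cell Ranger 3.0.1, STAR and the GRCm39 build were used. The values are raw UMI counts per gene and barcode as the authors deposited them; whether introns and strand were used in counting is not given in the sources used here. Each matrix is 1 sample, and samples were grouped by the genotype label.

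Nuclei with at least 500 detected genes and at most 5% mitochondrial UMIs were kept. 14 cell types were gated from 127 marker genes. Doublets were kept in the main values: Scrublet's automatic threshold marked 0 nuclei per library and so had not worked, and removing the top 8% by score (535 and 534 nuclei) was an alternative. Clusters (Leiden, scanpy 1.11.5) left out the 9 genes. UMIs were summed per gate and library. CPM has exact Poisson, ratios exact conditional binomial and shares exact binomial intervals (scipy 1.17.1), at 95%. No test was possible with 1 library per genotype. The ratio code was tested on simulated data. A gene counted as past the fold only with at least 100 UMIs.

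Named genes: every member; pathway genes past 1.5-fold with at least 100 UMIs; for each member the 3 genes most alike; copies of members. Others, such as Slc7a5 and Slc7a11, were named after their values were seen. A gene of the pathway list is counted but not reported here by name or drawn. The members and lists were chosen with earlier results of these data known, and the core nuclei were defined after seeing the data. The alternatives were other gene and mitochondrial limits, doublet removal, stricter gates, clusters, thinning, scaling, equal class makeup and a lower UMI minimum.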

Additional observations from a re-analysis of the deposited data

Results flagged for a closer look

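Slc1a2 was flagged because its difference between the libraries had opposite directions in different gates. The log2 ratio, knockout-labelled over wildtype-labelled, was 0.45 in radial glia, 0.53 in cortical excitatory neurons, 0.43 in forebrain inhibitory neurons and 0.36 in excitatory neurons outside the cortex, and -0.78 in intermediate progenitors. Fibroblasts, at -0.97 on 13 and 7 UMIs, had an interval that included 0. The difference between the gates was not tested, and the intermediate progenitor value rests on 44 and 22 UMIs. It was not seen in the core nuclei of that type, at -0.05 (-1.17 to 1.04). Nor was it seen in the cluster of that type, at 0.29 (-0.20 to 0.77) on 78 and 71 UMIs.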

How the results depend on the processing

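All 9 ratios over all nuclei moved by less than their counting intervals with a minimum of 200 or 1000 genes, no mitochondrial limit, the highest doublet scores removed, scaling by the median of gene ratios, equal class makeup, or without the low-depth cluster (the last chosen after seeing the data). Thinned to 1000 UMIs per nucleus, the log2 ratio was -0.21 for Slc1a1, 0.18 for Slc1a3, 0.19 for Slc1a4 and -0.22 for Glud1; the cause was not tested. With a minimum of 20 UMIs, 1241 genes were past 1.5-fold higher and 716 lower, against 329 and 94, since more genes with few counts were tested. In gates, 61 ratios were recomputed. Slc1a3 in other neurons, 1.08 for the gate, turned to -0.20 with at least 3 detected markers. In core radial glia, Slc1a3 in nuclei not dividing over dividing turned to 0.30 and 0.26. When clusters replaced the gates, 17 of 34 recomputed levels moved past their counting interval. Under this change Slc1a3 went from 256 and 263 to 461 and 578 CPM in radial glia and from 21.3 and 25.7 to 120 and 114 CPM in forebrain inhibitory neurons. The clusters under the latter name include a group of 372 and 352 nuclei led by Rmi2, Neil3 and Cdca2. The dividing-state marker Knl1 was also among the leading genes of that group, so the name does not describe it well. The part of that group in the change was not tested. No paired analysis was possible because each genotype has 1 library and the labels carry no replicate numbers. Depth limits Slc1a5, Glul and the gates under 100 nuclei, where few UMIs were counted.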
